A study of Rattus norvegicus with 105 samples.

Results

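Gene expression was followed from 1 to 3 months in the gastrocnemius muscle of rats that carried cobalt pellets. The comparison rests on 6 arrays of 35 groups of 3 in the study, 3 of cobalt muscle at 1 month and 3 at 3 months, chosen by the metal and month in their labels. The same step in tantalum muscle, 3 arrays at each month, served as the background of time and surgery, because tantalum pellets were the study's implanted sham control. All 12 arrays came from male Sprague-Dawley rats that were about 30 days old when purchased and had at least 2 weeks to acclimate. Each rat received 4 pellets, 2 in each hind limb, which were cylinders 1 mm across and 2 mm long. Per metal and month, 8 rats were assigned, and each Clariom S Rat array, which summarises its probes by gene, received 250 ng of RNA from a pool of 2 to 3 of them. The arrays are called pools below, and a p-value measures the spread between pools, not between single rats. Muscle of 1 and 3 months came from different rats, and those of 3 months were older, so that time with the pellet and age cannot be told apart within a metal.

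Muscle around an implant is entered first by neutrophils and monocytes, and macrophages on the surface can persist and fuse into giant cells. Lymphocytes follow chemokines: ligands of the receptor CXCR3 draw activated T cells and NK cells, and CXCL13, CCL19 and CCL21 organise B and T cells in lymphoid tissue. Interferon gamma from such cells induces those CXCR3 ligands, guanylate-binding proteins and the genes of antigen presentation in its neighbours. Cobalt ions are known to stabilise the hypoxia factor HIF and to induce heme oxygenase 1, the enzyme that breaks down heme and a target of the oxidative stress factor NRF2. In bulk muscle, more cells of a type and more RNA per cell cannot be told apart.

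Cobalt muscle differed between 3 and 1 month in 1573 of 22954 probe sets, 6.85% of those tested (limma, Benjamini-Hochberg adjusted p below 0.05), of which 1160 (5.05%) were higher and 413 (1.8%) were lower at 3 months. The 413 falls became 235 without the second cobalt pool of 1 month, and 228, 260 and 220 without the first, the second and the third of 3 months. The rises were also the larger changes: 461 probe sets (2.01%) were called and at least 2-fold higher, 114 at least 4-fold and 28 at least 8-fold, whereas 15 (0.0653%) were called and at least 2-fold lower. Tantalum muscle differed over the same time in 51 probe sets (0.222%), 20 higher (0.0871%) and 31 lower (0.135%), with 2324 (10.1%) at an unadjusted p below 0.05. The 3 minus 1 month step itself differed between cobalt and tantalum in 841 probe sets (3.66%), 775 with a higher step in cobalt (3.38%) and 66 with a lower step (0.288%), or 34 without the third cobalt pool of 3 months. At least 2-fold were 509 of the higher (2.22%) and 10 of the lower differences (0.0436%). The cobalt step and this difference share the 6 cobalt arrays and are therefore given side by side. Among the 1160 probe sets that rose, the median step was 0.84 on the log2 scale in cobalt and -0.03 in tantalum, against -0.04 and 0.00 over all probe sets. All 3 pools of 3 months lay above all 3 pools of 1 month for 1133 of them (11.7% over all probe sets), which the call on the same arrays nearly fixes.

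**Figure D1:**
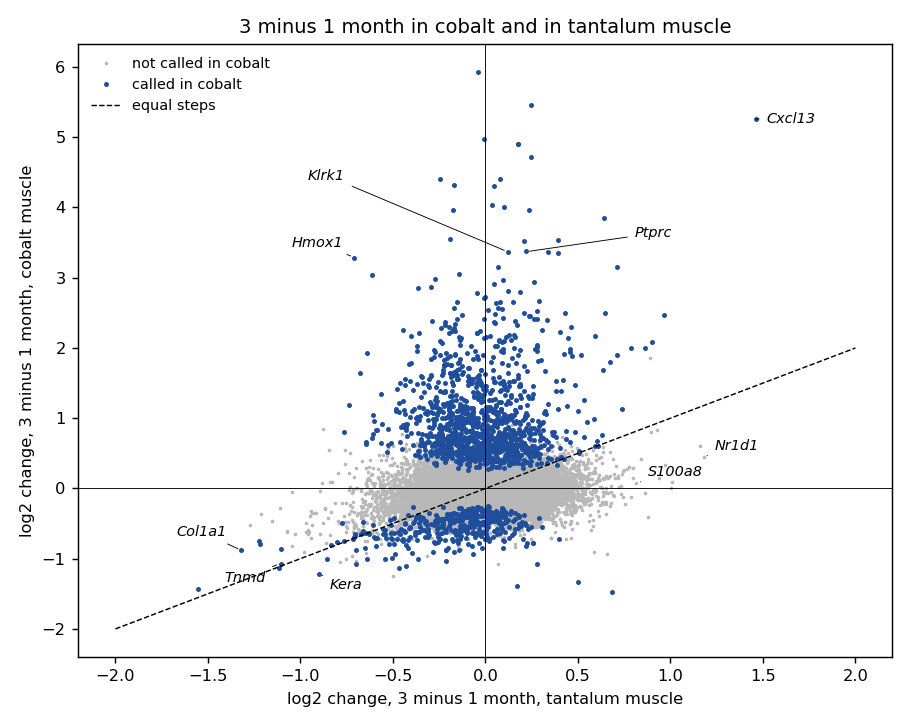
The log2 change from 1 to 3 months of each probe set in tantalum muscle (horizontal) against that in cobalt muscle (vertical), with the probe sets called in cobalt in blue, all others in grey and equal steps on the dashed line. Called probe sets rise by up to 5.93 in cobalt while their tantalum steps stay mostly near 0, and Col1a1 and Tnmd lie low in both metals.

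The 12 arrays were alike in scale, with medians between 6.43 and 6.51, and the control probe sets, which mark the background, had medians between 3.99 and 4.19. Values below 5.45, the level under which the dimmest 30% of probe sets lie, are called dim here. Of the 461 probe sets that rose at least 2-fold, 180 were dim at 1 month, so that their rise starts near the background. The 3 cobalt pools of 3 months had the lowest mean correlations with all other arrays of the study, 0.974, 0.976 and 0.970. With each other they correlated at 0.991 to 0.992. The third of them was the highest of its group in 21 of the 38 gene lists examined. Without that pool 1109 probe sets passed, 889 of them higher. The defining markers of the tissue were in place: the mean level of 14 fibre genes such as Ckm, the muscle creatine kinase, and Myh4, the fast IIB myosin, was between 13.21 and 13.36 in the cobalt pools of 1 month and between 13.27 and 13.31 in those of 3 months. These lie near the highest value of any probe set on the 12 arrays, 14.11.

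Chemokines that recruit lymphocytes were among the largest rises. Cxcl13, which draws B cells and follicular helper T cells through the receptor CXCR5, had log2 values of 5.74, 6.70 and 6.88 in the cobalt pools of 1 month and 12.07, 11.24 and 11.79 in those of 3 months. The groups were far apart, and the step of 5.26 ± 0.67 (SE, n = 3 pools per month) was the highest of any named gene (limma, adjusted p = 2.44e-09). In tantalum muscle Cxcl13 varied strongly between pools, with 6.09, 5.11 and 8.04 at 1 month and 8.19, 9.80 and 5.64 at 3 months, and the groups overlapped. Its cobalt step exceeded the tantalum step by 3.80 ± 0.95 (adjusted p = 0.00616), a call lost without the third tantalum pool of 1 month (adjusted p = 0.0885) or of 3 months (0.128). Of 12 measured genes for homing to lymphoid tissue, 7 rose, with a median step of 0.86 in cobalt and -0.14 in tantalum, and all 7 also had a higher step than in tantalum, a call lost for Ccr7 without any of 6 of the 12 pools. Ccl19, a ligand of CCR7, rose by 2.04 ± 0.21 and Ccl21, the other CCR7 ligand, by 0.92 ± 0.23. The receptors rose as well: Cxcr5 by 1.17 ± 0.22, Ccr7 by 0.80 ± 0.16 and Cxcr4, the receptor of CXCL12, by 1.46 ± 0.22.

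Ligands of CXCR3 rose too. Cxcl9 lay at 5.63, 6.55 and 6.50 in the cobalt pools of 1 month and at 9.36, 9.02 and 9.22 at 3 months, while the tantalum pools stayed between 5.74 and 6.39. The cobalt groups did not overlap, and the step was 2.97 ± 0.24 (adjusted p = 1.21e-16), which exceeded the tantalum step by 3.25 ± 0.34. Cxcl11 rose by 2.65 ± 0.20, Cxcl10 by 1.09 ± 0.17 and Cxcl16, which binds CXCR6, by 1.36 ± 0.18. The receptor Cxcr3 itself rose by 2.30 ± 0.26. Monocyte chemokines and inflammatory cytokines were more mixed, with 6 of 26 higher and a median of 0.28. Among those that rose were Ccl2, Ccl7 and Ccl12, ligands of CCR2 that call in monocytes, by 1.90 ± 0.25, 1.78 ± 0.22 and 1.34 ± 0.14. The cytokine Il18 rose by 2.24 ± 0.23 and Il1b by 1.13 ± 0.22, whereas Il6 had a step of 0.21 ± 0.22 (adjusted p = 0.677).

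**Figure D2:**
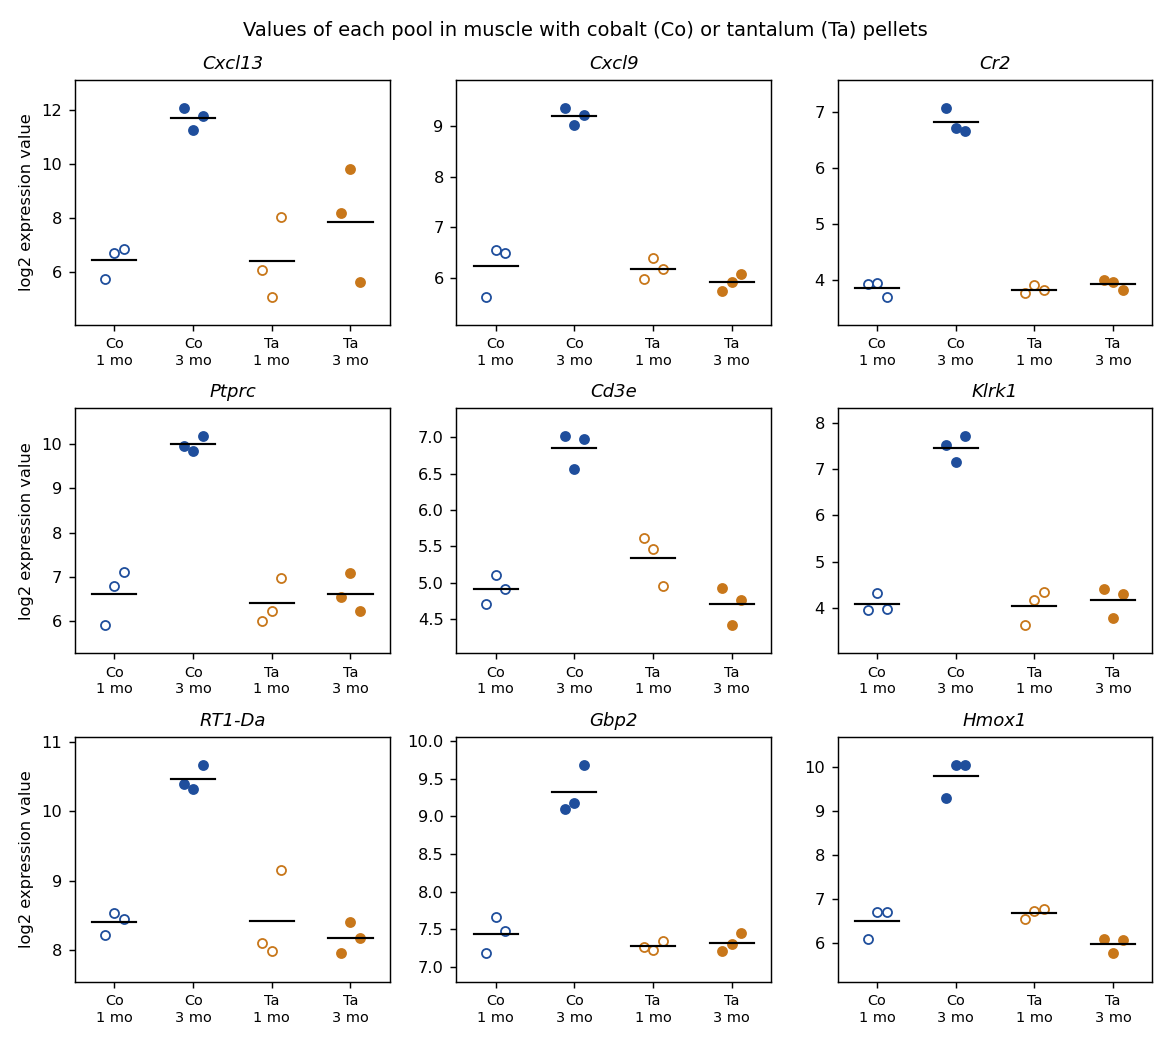
Log2 expression values of 9 genes in each pool of muscle with cobalt (Co, blue) or tantalum (Ta, orange) pellets at 1 month (open) and 3 months (filled), with the group mean as a line. In each panel the 3 cobalt pools of 3 months lie above all other pools, and the tantalum pools are spread most widely for Cxcl13.

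Leukocyte genes rose broadly. Of 16 genes shared by leukocytes, 13 rose, with a median step of 2.12 in cobalt and 0.11 in tantalum. Ptprc, which encodes the leukocyte antigen CD45, had values of 5.92, 6.80 and 7.11 at 1 month and 9.94, 9.84 and 10.16 at 3 months. The step of 3.37 ± 0.33 corresponded to a 10.37-fold rise (adjusted p = 2.08e-13), and the tantalum pools stayed between 6.00 and 7.10. Cd53, a tetraspanin of leukocytes, and Laptm5, a lysosomal protein of blood cells, rose by 3.15 ± 0.28 and 2.93 ± 0.22.

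T cell genes gave the highest share of calls among the lists of 10 or more genes: 23 of 25 rose, with a median step of 1.46 in cobalt and -0.01 in tantalum, and 19 had a higher step than in tantalum. The mean level of the list lay between 5.28 and 5.37 in the cobalt pools of 1 month and between 6.84 and 6.89 in those of 3 months, against 5.33 to 5.43 over the 6 tantalum pools. Cd3e, a chain of the T cell receptor complex, was at 4.71, 5.11 and 4.91 and then at 7.01, 6.56 and 6.97. These groups did not overlap, and the step was 1.93 ± 0.21 (adjusted p = 1.14e-11). The co-receptors rose as well, Cd4, which rat macrophages also carry, by 1.76 ± 0.27, Cd8a, which rat NK cells also carry, by 0.99 ± 0.18 and Cd8b by 1.99 ± 0.19. Il7r, the receptor of the survival cytokine interleukin 7, rose from 3.89, 4.21 and 3.97 to 6.71, 7.11 and 7.42, a step of 3.06 ± 0.25. All 3 pools of 1 month were at the background, and all 3 of 3 months were well above it. Genes that restrain T cells rose too, Ctla4 by 1.92 ± 0.25, Pdcd1, which encodes PD-1, by 1.65 ± 0.15, Lag3 by 1.14 ± 0.21 and Foxp3, the factor of regulatory T cells, by 0.70 ± 0.15. The tantalum step of Foxp3 was 0.29, and the difference of the steps, 0.40 ± 0.21, did not pass (adjusted p = 0.441). The 2 T cell genes that did not pass were Zap70 with 0.56 ± 0.21 (adjusted p = 0.112) and Cd6 with 0.35 ± 0.21 (0.381). Of these 25 genes 14 were dim at 1 month.

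NK receptor and cytotoxic granule genes were divided. Klrk1, which encodes the activating receptor NKG2D, lay at 3.97, 4.32 and 3.98 at 1 month and at 7.52, 7.16 and 7.70 at 3 months. The tantalum pools lay between 3.64 and 4.42, and the cobalt step of 3.37 ± 0.23 exceeded the tantalum step by 3.25 ± 0.32 (adjusted p = 5.05e-12). Of 23 measured genes 12 rose, with a median of 0.57 in cobalt and -0.09 in tantalum. Klrc3, one of the closely related NKG2 genes whose probes may share signal, rose by 2.37 ± 0.19, Nkg7, a granule membrane protein, by 1.74 ± 0.17, the pore former Prf1 by 1.12 ± 0.18 and the granzyme Gzmk by 1.07 ± 0.22. Gzmb, Gzma and Ifng did not pass. The granzyme Gzmb was at 3.93, 4.23 and 3.93 at 1 month and at 4.23, 4.12 and 4.10 at 3 months, Gzma had a step of 0.42 ± 0.21 (adjusted p = 0.288) and Ifng, which encodes interferon gamma, one of 0.37 ± 0.20 (adjusted p = 0.323). All 3 were dim in every cobalt pool, and 19 of the 23 genes were dim at 1 month.

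B lineage genes rose in 13 of 16 cases, with a median step of 0.98 in cobalt and -0.08 in tantalum, and 11 had a higher step than in tantalum. Cr2, the complement receptor of B cells and follicular dendritic cells, had values of 3.92, 3.94 and 3.70 at 1 month and 7.08, 6.72 and 6.67 at 3 months. The 6 tantalum pools lay between 3.76 and 3.99, at the cobalt level of 1 month, and the cobalt step of 2.97 ± 0.17 had the smallest adjusted p of all probe sets (3.98e-24). Blnk, the B cell linker, rose by 2.52 ± 0.27, Cd79b, a chain of the B cell receptor, by 2.15 ± 0.20 and Bank1, its scaffold, by 1.78 ± 0.18. Mzb1, a chaperone of antibody assembly in plasma cells, rose by 1.26 ± 0.18 and Xbp1, their secretory factor, by 0.57 ± 0.13. Tnfrsf17, the plasma cell receptor BCMA, had a step of 0.10 ± 0.17 (adjusted p = 0.829) and Pax5 one of 0.40 ± 0.16 (0.116). Most of the largest rises had no single symbol here, which means none or several: this held for 22 of the 28 probe sets that rose at least 8-fold. Among them, TC0600001662.rn.2 and TC0600001667.rn.2 had the same values in every cobalt and tantalum pool of 1 and 3 months. Of the 22, 2 exceeded Cxcl13. The larger, probe set TC0600003320.rn.2, was at 6.75, 7.01 and 7.99 in the cobalt pools of 1 month and at 13.38, 12.92 and 13.23 at 3 months, and between 4.46 and 5.09 in all tantalum pools. Its step was 5.93 ± 0.83, and its cobalt pools already lay above the tantalum pools at 1 month.

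Antigen presentation genes rose in both classes. Of the 8 measured MHC class II genes 6 rose, with a median step of 1.42 in cobalt and -0.05 in tantalum, and 5 had a higher step than in tantalum. The rise of RT1-DOb, 0.48, was a call lost without any cobalt pool of 1 month or the first of 3 months. Cd74, the invariant chain, went from 8.69, 9.25 and 9.25 to 11.67, 11.38 and 11.75, a step of 2.54 ± 0.26 (adjusted p = 1.68e-12), without overlap between the months. RT1-Da and RT1-Db1, the chains of the rat molecule that corresponds to HLA-DR, rose by 2.07 ± 0.23 and 1.87 ± 0.20, and RT1-Ba, a chain of the other classical class II molecule, by 1.99 ± 0.24. Its partner RT1-Bb had a step of 0.29 ± 0.22 (adjusted p = 0.520), with 7.52 in the third pool of 3 months and 6.23 and 6.34 in the others. Ciita, the master activator of class II genes, rose by 0.97 ± 0.17. RT1 genes are a family of close relatives, so that their probes may share signal.

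Class II promoters are bound by a complex that includes NF-Y at the Y box. The promoter windows of 2 of these genes, from 250 bases before to 50 after the gene's start, are printed from RefSeq (assembly GRCr8) to show the Y box letters ATTGG, sought on both strands and in capitals here. RT1-Da lies at chr20:4515165-4515464 (plus strand) and RT1-Ba at chr20:4576807-4577106 (plus strand).
RT1-Da: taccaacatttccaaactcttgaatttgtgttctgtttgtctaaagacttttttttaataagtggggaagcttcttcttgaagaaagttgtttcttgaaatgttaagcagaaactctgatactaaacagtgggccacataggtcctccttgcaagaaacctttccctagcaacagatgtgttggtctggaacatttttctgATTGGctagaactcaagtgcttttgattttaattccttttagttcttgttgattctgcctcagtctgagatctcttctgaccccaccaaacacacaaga
RT1-Ba: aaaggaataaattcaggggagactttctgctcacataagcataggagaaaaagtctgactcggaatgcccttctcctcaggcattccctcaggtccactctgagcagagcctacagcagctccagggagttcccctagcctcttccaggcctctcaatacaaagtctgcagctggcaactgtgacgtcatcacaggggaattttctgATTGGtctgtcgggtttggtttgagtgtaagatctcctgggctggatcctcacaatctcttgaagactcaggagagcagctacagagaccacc
The Y box begins 49 bases before the start in RT1-Da and 43 bases before it in RT1-Ba. All 7 class II genes with a window in the table held these letters, but so did 37.7% of all 27457 windows.

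Class I genes and the immunoproteasome, which cuts the peptides that class I presents, rose in 11 of 13 cases, with a median of 0.78 in cobalt and 0.00 in tantalum. B2m, the light chain of class I, was at 10.58, 10.84 and 10.90 and then at 11.90, 11.86 and 12.07, and its step of 1.17 ± 0.12 exceeded that of tantalum by 1.28 ± 0.17. The immunoproteasome subunits Psmb9 and Psmb8 rose by 1.63 ± 0.15 and 1.52 ± 0.18, and Tap1, the peptide transporter, by 0.70 ± 0.12.

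Genes of the interferon gamma response, which here include the receptor chains Ifngr1 and Ifngr2 and the kinase Jak2 beside genes that interferon gamma induces, rose in 10 of 12 cases, with a median of 0.79 in cobalt and 0.06 in tantalum. Gbp2, a guanylate-binding protein, had values of 7.18, 7.66 and 7.48 at 1 month and 9.10, 9.18 and 9.68 at 3 months, and the 6 tantalum pools lay between 7.21 and 7.45. Its cobalt step was 1.88 ± 0.15 (adjusted p = 9.96e-18), with no overlap. The GTPase Ifi47 rose by 2.56 ± 0.20, its relative Igtp by 1.04 ± 0.17 and Irf1, a transcription factor of the interferon response, by 1.13 ± 0.20. The difference from tantalum was lost for Irf1 without the third cobalt pool of 3 months (adjusted p = 0.0528) or the first tantalum pool of 1 month (0.0718), and for Igtp without the first cobalt pool of 1 month (0.0737) or the second tantalum pool of 1 month (0.0550) or 3 months (0.116). Ubd, a ubiquitin-like protein that interferon gamma and TNF induce, was at 3.99, 5.15 and 4.81 at 1 month and at 6.93, 8.20 and 7.16 at 3 months, a step of 2.78 ± 0.39. Of 23 antiviral genes of type I interferon 4 rose (5.05% of all probe sets rose), with a median of 0.22 in cobalt and -0.12 in tantalum. A higher step than in tantalum was called for 3, or 5 without the second cobalt pool of 3 months. Mx1 rose by 1.52 ± 0.26, Stat2 by 0.72 ± 0.13, Dhx58 by 0.68 ± 0.16 and Irf7 by 0.66 ± 0.22, the last of these a call lost without 4 of the 6 cobalt pools in turn, all but the second of each month. Ifit1, Rsad2 and Isg15, which type I interferon also induces, had steps of 0.01, 0.04 and 0.28, none of which passed.

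The windows of 4 of the interferon gamma genes, again from RefSeq (GRCr8), are printed with 2 kinds of site in capitals. The GAS letters TTCNNNGAA are those of the gamma-activated site, and the ISRE letters, GAAA and again GAAA with 2 bases between, those of the interferon-stimulated response element, both sought on both strands. Ifi47 lies at chr10:33798494-33798793 (plus strand), Irf1 at chr10:38417685-38417984 (plus strand), Igtp at chr10:42874797-42875096 (plus strand) and Gbp2 at chr2:234005477-234005776 (plus strand).
Ifi47: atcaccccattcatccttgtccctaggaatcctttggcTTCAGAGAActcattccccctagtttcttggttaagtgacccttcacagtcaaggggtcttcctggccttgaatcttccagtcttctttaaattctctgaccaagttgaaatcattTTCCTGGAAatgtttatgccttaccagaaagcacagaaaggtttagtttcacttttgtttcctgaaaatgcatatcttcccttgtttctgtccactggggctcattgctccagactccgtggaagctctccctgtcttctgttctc
Irf1: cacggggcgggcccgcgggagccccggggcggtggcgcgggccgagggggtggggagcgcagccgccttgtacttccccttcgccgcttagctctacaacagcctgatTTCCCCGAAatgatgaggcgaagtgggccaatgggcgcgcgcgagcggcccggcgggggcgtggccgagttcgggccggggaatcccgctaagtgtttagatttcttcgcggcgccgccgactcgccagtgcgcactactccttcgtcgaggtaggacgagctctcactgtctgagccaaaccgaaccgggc
Igtp: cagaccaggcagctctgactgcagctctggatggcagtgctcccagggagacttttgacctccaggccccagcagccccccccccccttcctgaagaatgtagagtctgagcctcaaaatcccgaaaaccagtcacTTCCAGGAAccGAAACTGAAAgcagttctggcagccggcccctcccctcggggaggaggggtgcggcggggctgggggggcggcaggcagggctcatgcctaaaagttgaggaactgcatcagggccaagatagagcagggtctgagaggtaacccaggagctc
Gbp2: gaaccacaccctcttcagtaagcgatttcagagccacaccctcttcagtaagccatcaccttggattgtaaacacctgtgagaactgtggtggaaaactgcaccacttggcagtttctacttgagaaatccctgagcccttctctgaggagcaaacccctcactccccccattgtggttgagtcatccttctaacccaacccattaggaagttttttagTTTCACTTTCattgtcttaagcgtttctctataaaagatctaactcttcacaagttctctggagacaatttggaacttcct
Ifi47 held 2 GAS matches, which begin 212 and 96 bases before the start, and Irf1 held 1, at 142 bases. Igtp held a GAS match at 114 bases and an ISRE match at 103, and Gbp2 an ISRE match at 31. Over the 11 genes of this list with a window, 6 held GAS letters and 5 held ISRE letters. Of all 27457 windows, 8.68% held GAS letters and 3.77% ISRE letters, and of the 255 windows of genes that rose at least 2-fold in cobalt, 12.2% and 11.8%. A match describes letters in a window and not a bound site.

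Macrophage and dendritic cell genes rose in 21 of 28 cases, with a median step of 1.04 in cobalt and -0.03 in tantalum, and 16 had a higher step than in tantalum, or 9 without the third tantalum pool of 1 month. Mpeg1, a pore-forming protein of macrophages, was at 5.58, 5.96 and 5.68 at 1 month and at 8.34, 8.44 and 8.80 at 3 months. The step was 2.79 ± 0.30 (adjusted p = 5.15e-12) and exceeded that of tantalum, where the pools lay between 5.38 and 6.53, by 2.60 ± 0.42. Fcgr3a, an Fc receptor, rose by 2.39 ± 0.20, Cd68, a lysosomal marker of macrophages, by 2.26 ± 0.29, Fcer1g, a signalling chain of Fc receptors, by 2.15 ± 0.24, Adgre1, which encodes F4/80, by 1.72 ± 0.27 and Xcr1, a receptor of cross-presenting dendritic cells, by 2.21 ± 0.25. Among the genes of the list that did not pass, Cd163 had a step of 0.21 ± 0.21 (adjusted p = 0.655), Marco one of -0.02 ± 0.17 (0.969) and Vsig4 one of 0.12 ± 0.17 (0.782), the last of these dim in every cobalt pool.

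Cybb, the catalytic subunit of the phagocyte NADPH oxidase, rose in cobalt from 7.80, 7.91 and 8.10 to 9.83, 9.76 and 10.21, a step of 2.00 ± 0.30. The tantalum pools of 3 months were at 9.42, 10.17 and 7.89, so that the second lay within the range of the cobalt pools, and the difference of the steps, 1.21 ± 0.43, did not pass (adjusted p = 0.121). Gpnmb, a glycoprotein of lipid-laden and giant cells, rose by 1.81 ± 0.39 in cobalt, and its difference of 1.13 ± 0.55 did not pass either (adjusted p = 0.365), with tantalum pools of 3 months at 8.45, 9.28 and 6.41. Of 17 lysosome and giant cell genes 5 rose, among them the cathepsin Ctsz by 1.53 ± 0.15 and the acid phosphatase Acp5 by 1.08 ± 0.19, and the median was 0.26. Of 9 NADPH oxidase and phagocyte killing genes 5 rose, and 2 had a higher step than in tantalum. That 2 became 1 without the first cobalt pool of 1 month or the third tantalum pool of either month, and 4 without the second tantalum pool of 1 month.

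Neutrophil genes were not called. Of the 14 measured 0 passed in cobalt in limma, beside 6.85% of all probe sets, so that the count lies near that share. At an unadjusted p below 0.05 there was 1, a level that 18.3% of all probe sets reached. The median step was 0.04, and 9 of the 14 were dim at 1 month. The mean level lay between 5.10 and 5.22 at 1 month and between 5.12 and 5.29 at 3 months. The calprotectin subunit S100a8 was dim in all cobalt pools, with a cobalt step of 0.08 ± 0.20, and passed in tantalum with 0.82 (adjusted p = 0.0442), where it was dim as well and where the call was lost without any of 5 tantalum pools. Mast cell and eosinophil genes passed in 0 of 14 cases in limma (1 unadjusted), with a median of -0.11, and 7 were dim at 1 month. Slpi, an inhibitor of neutrophil elastase made by epithelia and leukocytes, rose from 4.88, 5.42 and 5.39 to 7.97, 7.96 and 8.36, a step of 2.87 ± 0.25. B3gnt5, a glycolipid synthase, rose by 2.67 ± 0.21. Complement genes rose in 6 of 10 cases, or 3 without the third cobalt pool of 3 months, and C3, the central component, rose by 2.46 ± 0.23. Of 17 pattern recognition and inflammasome genes 9 rose, among them the RNA sensor Tlr7 by 1.81 ± 0.24 and Casp1, the inflammasome protease, by 1.33 ± 0.22. Endothelial markers rose in 3 of 15 cases, beside 5.05% of all probe sets, and all 3 were adhesion molecules. Vcam1, which holds lymphocytes and monocytes, rose by 1.95 ± 0.23, Icam1 by 0.60 ± 0.14 and Selp by 0.69 ± 0.19. The call of Selp was lost without cobalt pool 1 or 2 of 1 month. The vessel marker Pecam1 had a step of 0.21 ± 0.15 (adjusted p = 0.503). A higher step than in tantalum was called for 2 genes of the list. Of these, 1 was Sele, whose call was lost under 12 of the alternative settings. At most 1 of Vcam1, Icam1 and Selp was therefore called against tantalum.

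**Figure D3:**
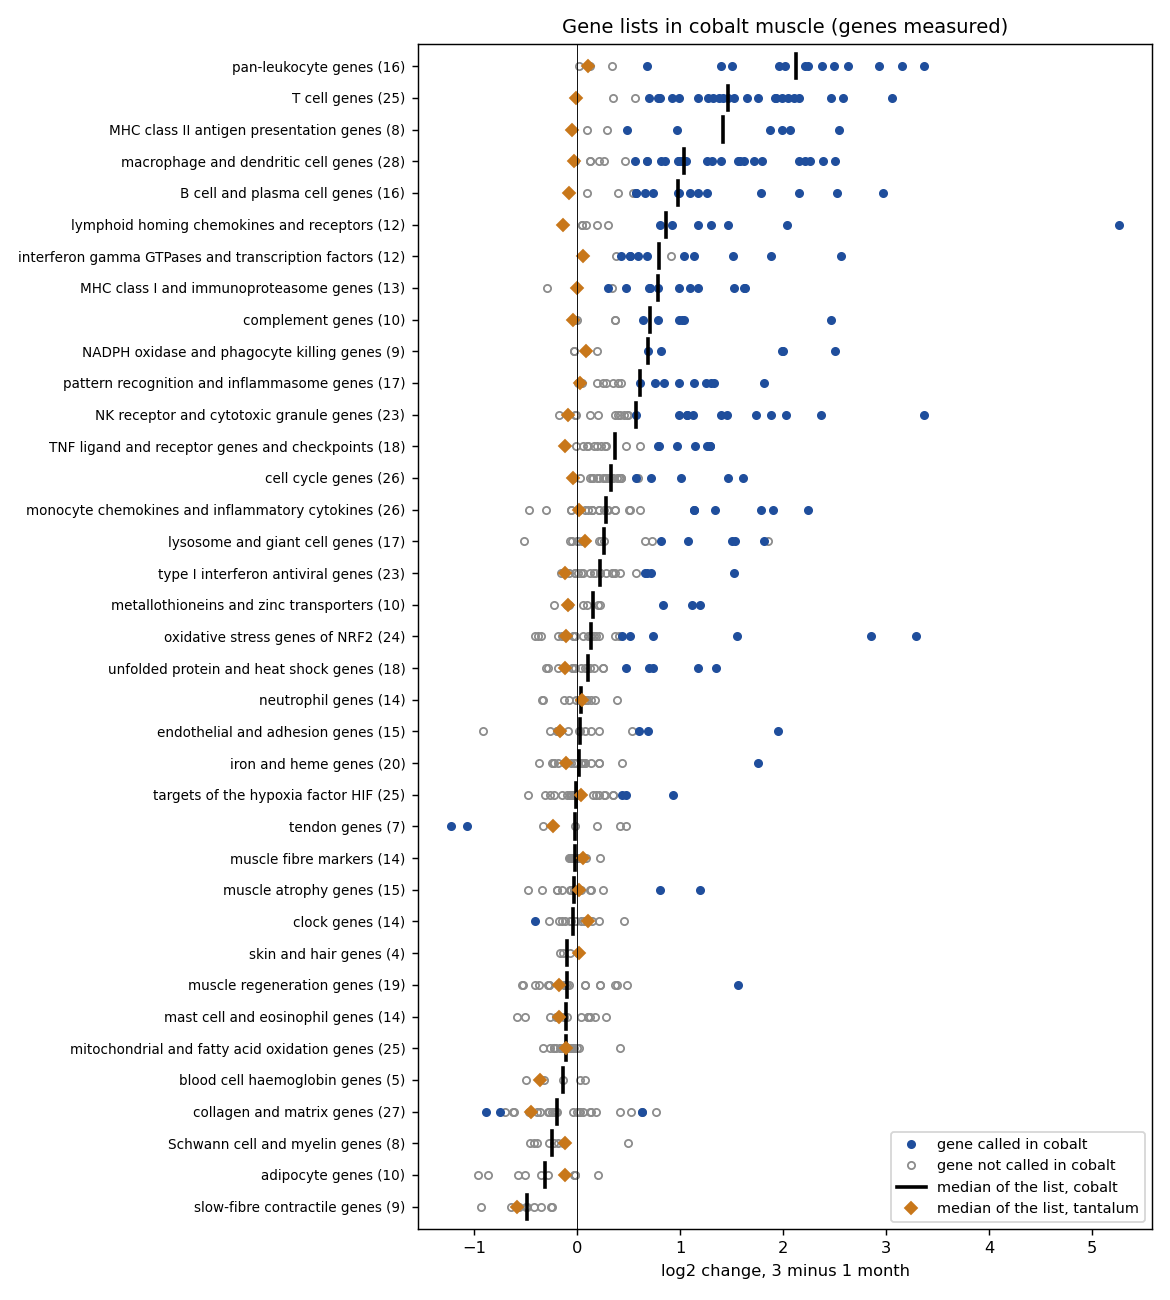
The log2 change from 1 to 3 months in cobalt muscle of every measured gene in 37 of the 38 lists (blue, called; open grey, not called), with the list median in cobalt as a black bar and in tantalum as an orange diamond, and the number of genes in brackets. Leukocyte, T cell and class II lists lie farthest to the right with medians of 2.12, 1.46 and 1.42, and all tantalum medians lie between -0.58 and 0.11.

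Stress genes rose in part. Hmox1 was at 6.09, 6.71 and 6.71 in the cobalt pools of 1 month and at 9.29, 10.04 and 10.04 at 3 months, while in tantalum it was at 6.54, 6.72 and 6.78 and then at 6.09, 5.76 and 6.06. The cobalt groups were far apart and the tantalum pools of 3 months lay below those of 1 month. The cobalt step was 3.29 ± 0.31 (adjusted p = 2.35e-14), and it exceeded the tantalum step by 4.00 ± 0.43, the largest such difference of any named gene. Of the 24 measured genes of the NRF2 list 6 rose, with a median of 0.13 in cobalt and -0.11 in tantalum. Akr1b8, an aldo-keto reductase, was at 5.99, 5.68 and 5.70 and then at 7.44, 9.01 and 9.47, a step of 2.85 ± 0.32 with the first pool of 3 months well below the others. The cystine carrier Slc7a11 rose by 1.55 ± 0.22, Tkt, a pentose phosphate enzyme, by 0.74 ± 0.13, the thioredoxin Txn1 by 0.51 ± 0.10 and Gclc, of glutathione synthesis, by 0.44 ± 0.14, a call lost without any of the cobalt pools but the first of 3 months. Other standard NRF2 targets did not pass: Nqo1 had a step of -0.02 ± 0.18 (adjusted p = 0.966), Srxn1 one of 0.11 ± 0.13 (0.725) and Gclm one of 0.13 ± 0.13 (0.660).

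Among 20 iron and heme genes 1 passed, near the share of 5.05% of all probe sets that rose. It was the ferritin light chain Ftl1, which went from 9.72, 9.90 and 10.07 to 11.53, 11.59 and 11.84, a step of 1.76 ± 0.26. The tantalum pools lay in between, at 10.46 to 11.18. The metal-binding metallothioneins Mt1 and Mt2A rose by 1.19 ± 0.24 and 0.83 ± 0.24, the second a call lost without the second or the third cobalt pool of either month, and the metal carrier Slc39a8 by 1.11 ± 0.22, which makes 3 of 10 genes of that list. Mt1 had a step of -0.74 in tantalum that did not pass (adjusted p = 0.198), and its steps differed by 1.92 ± 0.35. Of 25 measured HIF targets 3 rose, beside 5.05% of all probe sets, or 1 without the first or second cobalt pool of 1 month or the third of 3 months. The 3 were the glucose carrier Slc2a1 with 0.93 ± 0.15, the glycolytic enzyme Eno1 with 0.47 ± 0.14 and the oxidase Ero1a with 0.44 ± 0.14. Against the tantalum step, 1 gene of the list was higher and 1 lower. The lower call was lost without any of the cobalt pools of 1 month. The median of the HIF list was -0.01, Vegfa had a step of -0.03 ± 0.11 (adjusted p = 0.936) and Car9 one of -0.06 ± 0.17 (0.905). Of 18 genes of the unfolded protein and heat shock responses 5 rose, all 5 also beyond the tantalum step. For Asns, with a step of 0.74, the rise was lost without cobalt pool 1 or 2 of 1 month or cobalt pool 1 or 3 of 3 months. Its difference from the tantalum step, 1.05, was lost under 10 of the alternative settings. The chaperone genes Creld2 and Pdia4 rose by 1.35 ± 0.17 and 1.17 ± 0.13, Hsp90b1 by 0.70 ± 0.15 and Hspa5 by 0.47 ± 0.10, whereas the stress factor Ddit3 had a step of -0.30 ± 0.19 (adjusted p = 0.422) and Atf4 one of -0.04 ± 0.10 (0.877).

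Proliferation genes rose in 5 of 26 cases, with a median of 0.33 in cobalt and -0.04 in tantalum. Mki67, the marker of dividing cells, was at 5.96, 5.94 and 6.24 and then at 7.70, 7.56 and 7.72, a step of 1.61 ± 0.22 (adjusted p = 2.74e-08). The replication genes Mcm3 and Rrm2 rose by 1.46 ± 0.17 and 1.01 ± 0.20, and Ccna2 and Aurkb by 0.72 ± 0.24 and 0.57 ± 0.19, and 3 genes of the list passed without the third cobalt pool of 1 month or the first or second of 3 months. Ccna2 was lost without any cobalt pool but the second of 1 month and Aurkb without any but the first of 1 month.

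Few of the muscle's own genes passed, and 6.85% of all probe sets were called in either direction. Of the 14 fibre genes 0 were called by limma (1 unadjusted), with a median of -0.02, and of 25 mitochondrial and fatty acid oxidation genes also 0 (2 unadjusted), with a median of -0.11 in both metals. Ckm was at 13.40, 13.34 and 13.38 and then at 13.33, 13.33 and 13.27. Of 19 regeneration genes 1 rose, near the share of 5.05% over all probe sets, and 2 rose without the first cobalt pool of 1 month. The 1 was Ankrd1, a stress-induced protein of the sarcomere, which went from 7.29, 7.16 and 7.17 to 8.37, 9.32 and 8.60. Its step of 1.56 ± 0.31 exceeded the tantalum step by 1.86 ± 0.44. The myogenic factor Myog had a step of -0.41 ± 0.19 in cobalt and -0.52 in tantalum, neither of which passed. Of 15 atrophy genes 2 rose, Mt1 and the cell cycle inhibitor Cdkn1a, the latter by 0.80 ± 0.21 with a tantalum step of -0.77, a call lost without the first cobalt pool of 1 month (adjusted p = 0.0829). The ubiquitin ligases of atrophy did not pass, Fbxo32 with 0.04 ± 0.18 (adjusted p = 0.941) and Trim63 with -0.07 ± 0.10 (0.781). Genes of slow fibres had a median step of -0.49 in cobalt and -0.58 in tantalum, with 0 of 9 called in either in limma (1 in cobalt and 2 in tantalum at an unadjusted p below 0.05), and their mean level spread widely between pools, from 11.49 to 12.34 in cobalt at 1 month and from 11.28 to 11.88 at 3 months.

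The 413 probe sets that fell in cobalt had a median step of -0.50, and -0.12 in tantalum, against -0.04 and 0.00 over all probe sets. In tantalum, 529 of the 1160 probe sets that rose had a step above 0. Of the 413 that fell, 303 had a tantalum step below 0. In 396 of these 413 all 3 pools of 3 months lay below all 3 of 1 month (14.9% over all probe sets), which the call again nearly fixes. Of the 599 measured genes of the 38 lists 193 rose and 5 fell, and the 5 lie in the tendon, matrix and clock lists, with 37 lower at an unadjusted p below 0.05. Kera, which encodes the proteoglycan keratocan, went from 8.98, 8.86 and 8.19 to 7.78, 6.82 and 7.79, a step of -1.22 ± 0.39 (adjusted p = 0.0401) beside -0.90 in tantalum, which did not pass (0.388). Tnmd, the tendon protein tenomodulin, went from 8.23, 8.31 and 7.49 to 7.10, 6.32 and 7.40, a step of -1.07 ± 0.35 (adjusted p = 0.0493) beside -1.11 in tantalum, which did not pass either (0.172). Both calls, 2 of the 7 measured tendon genes, were lost without the first or second cobalt pool of 1 month or the second of 3 months. Glb1l2, a beta-galactosidase-like gene, had nearly the same step in cobalt, -1.13 ± 0.23, and in tantalum, -1.12, and passed in both, in tantalum not without the second pool of either month.

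Besides Glb1l2, none of the 10 genes with the lowest steps was called in tantalum. Zim1, an imprinted zinc finger gene, was at 8.36, 7.92 and 7.68 and then at 6.77, 6.92 and 6.90, a step of -1.13 ± 0.17 (adjusted p = 1.33e-07) against -0.47 in tantalum, and the difference of the steps did not pass (adjusted p = 0.117). Sv2b, a synaptic vesicle protein, had a step of -0.99 ± 0.24, Npr3, the clearance receptor of natriuretic peptides, one of -0.90 ± 0.18 and Ptprz1, a receptor phosphatase, one of -0.93 ± 0.16. Hnmt, which inactivates histamine, had a step of -0.92 ± 0.19 and was dim in every pool. Pi15, a peptidase inhibitor, had a step of -1.01 ± 0.30 and Iqcm one of -1.08 ± 0.35, the first lost without the second or the third cobalt pool of either month and the second without any cobalt pool but the first of 3 months. For 0 of these 10 genes with the lowest steps did the difference from the tantalum step pass in limma, with 3 of 10 at an unadjusted p below 0.05, against 12.6% of all probe sets.

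The collagen chains Col1a1 and Col3a1 fell in both metals. Col1a1, the main chain of type I collagen, was at 11.37, 11.92 and 11.84 in cobalt at 1 month and at 11.08, 10.26 and 11.15 at 3 months, and in tantalum at 11.32, 11.34 and 12.27 and then at 10.48, 10.15 and 10.33. The step was -0.88 ± 0.25 in cobalt (adjusted p = 0.0160) and -1.32 in tantalum (adjusted p = 0.00365), and the difference did not pass (adjusted p = 0.686). Col3a1 had steps of -0.75 ± 0.23 and -1.22. Of 27 collagen and matrix genes 2 fell and 1 rose in cobalt, with a median of -0.20, and 5 fell in tantalum, Col1a1, Col1a2, Col3a1, Col6a2 and the microfibril gene Fbn1, with a median of -0.45. The 5 tantalum falls became 2 without the first and 1 without the second tantalum pool of 3 months, and all 5 were lost without the third of 1 month. Both cobalt falls were lost without the second or the third cobalt pool of 1 month or the second of 3 months, and that of Col3a1 also without the first of 3 months (adjusted p = 0.0601). The tantalum fall of Col1a1 was lost without the second tantalum pool of 3 months too (adjusted p = 0.0594). The rise was of Timp1, an inhibitor of matrix proteases, by 0.63 ± 0.20, a call lost without any of the cobalt pools but the first of 3 months. Bgn, the proteoglycan biglycan, had a step of 0.77 ± 0.26 in cobalt (adjusted p = 0.0606) and -0.45 in tantalum. Of 14 clock genes 1 fell in cobalt, Bmal1, with a step of -0.41 ± 0.14 (adjusted p = 0.0494), lost without any of the 6 cobalt pools. Nr1d1, its repressor, was the gene with the highest called step in tantalum, 1.18 (adjusted p = 6.63e-05), against 0.45 ± 0.18 in cobalt (adjusted p = 0.120). The hour of tissue collection is not given in the sources used here.

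**Figure D4:**
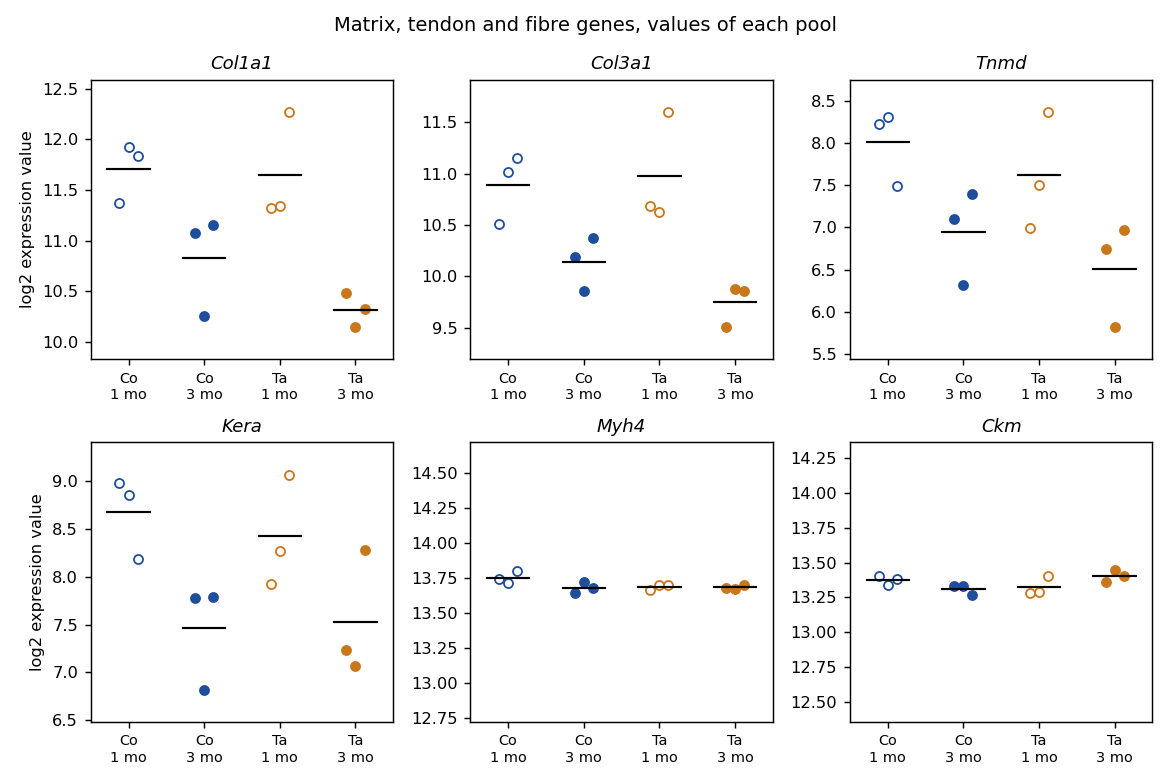
Log2 expression values of 6 matrix, tendon and fibre genes in each pool of cobalt (Co, blue) and tantalum (Ta, orange) muscle at 1 month (open) and 3 months (filled), with the group mean as a line. Col1a1, Col3a1, Tnmd and Kera have lower means at 3 months in both metals, although the tantalum pools of Kera overlap, and Myh4 and Ckm lie within 0.2 of each other in all pools of a panel.

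Over the 4 months sampled, the probe sets that had risen at least 2-fold in cobalt muscle had their highest median level at 3 months. The 461 probe sets that rose at least 2-fold had a median level of 5.84 at 1 month and 7.47 at 3 months in cobalt, and of 5.67 at 6 months and 5.68 at 12 months, beside 5.85, 5.82, 5.73 and 5.69 in tantalum. These probe sets were chosen for their rise, so that the levels are a description without a test. Cxcl13 was at 5.35 ± 0.10 (SD, n = 3 pools) in cobalt at 6 months, Hmox1 at 6.06 ± 0.37 and Ptprc at 5.63 ± 0.22. Over the same probe sets, the median step from 1 to 3 months was 0.30 in nickel muscle. For the other 6 metals besides cobalt and tantalum it lay between -0.32 in copper and 0.13 in depleted uranium muscle. A step does not show a rise already present at 1 month, and the levels in these metals are not given here. For Hmox1 the steps of those 7 metals lay between -0.76 and 0.93, and for Cr2 between -0.18 and 0.50.

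**Figure D5:**
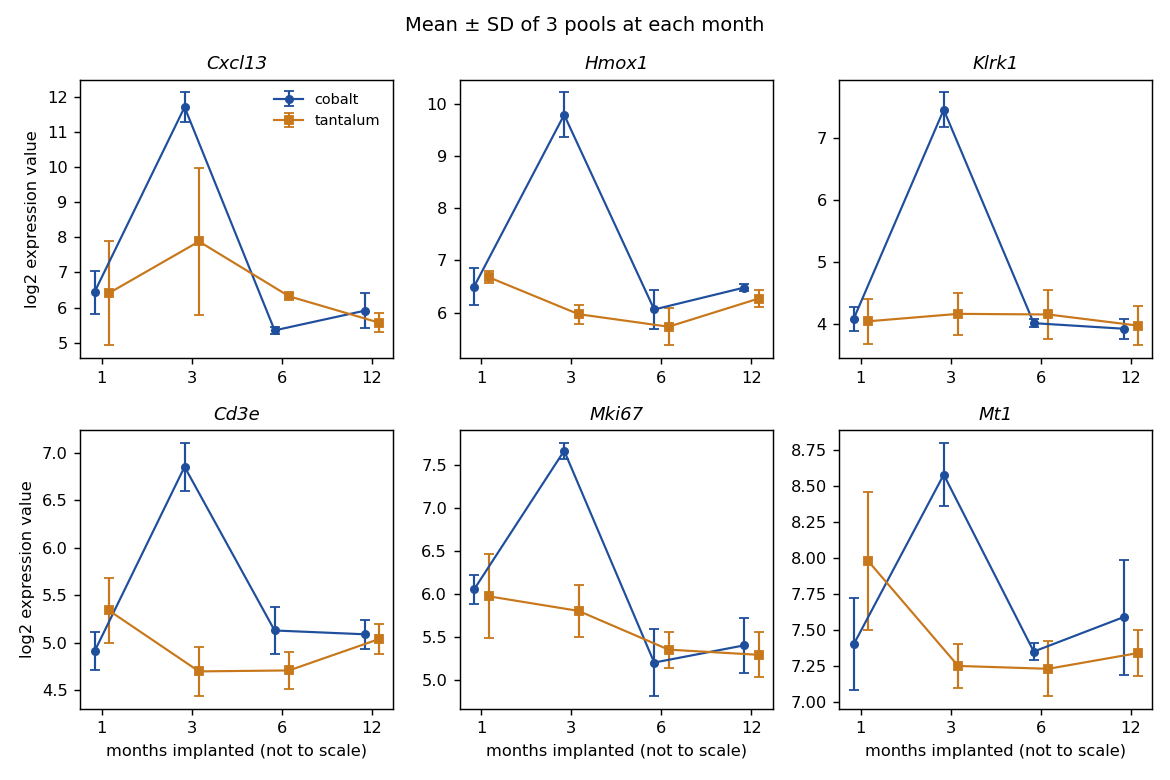
Mean log2 expression value ± SD of 3 pools at 1, 3, 6 and 12 months for 6 genes in cobalt (blue circles) and tantalum (orange squares) muscle, with the months evenly spaced. In cobalt each gene is highest at 3 months and lower at 6 and 12 months.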

How the data were processed

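The values are log2 intensities, 1 per probe set and array, which the authors computed with oligo in R 4.0.1 by RMA (robust multi-array averaging, which corrects background, sets all arrays to the same quantiles and summarises the probes), per the submitters' processing notes; whether all arrays went through 1 run is not given in the sources used here. The table holds 22977 probe sets, of which 23 control probe sets were left out and 22954 tested. Gene symbols came from a RefSeq gene table (GRCr8) through gene IDs, which gave 14855 probe sets a single symbol, and of genes on 2 probe sets the brighter was kept. Promoter windows came from RefSeq for the same assembly.

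A linear model with 1 mean for each of 35 groups was fitted to all arrays by lmFit and eBayes in limma 3.58.1 (R 4.3.3), with degrees of freedom of 70 (residual) and 7.25 (prior). P-values are two-sided and were adjusted by Benjamini-Hochberg over 22954 probe sets, with a threshold of 0.05. Comparisons were 3 minus 1 month in cobalt, the same in tantalum, and the difference of these steps. Changes are log2 values ± SE of the model, and n is 3 arrays per group, which limits the precision. No date or slide is given, so batches were not tested. The script was tested on simulated data.

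Named genes are the 15 highest and 10 lowest called changes whose pools did not overlap, up to 6 members of each of 38 lists by adjusted p, members needed to show a count, members that did not pass, and the 3 extremes of the other comparisons. The members, the lists and this rule were chosen with earlier results of these data known, so that no list was independent of them. Lists are described by counts and medians and were not tested as sets, and 1 list is not reported here. Alternatives were the replicate number as a block, array weights, quantile normalization run again, removal of the dimmest 30%, eBayes with trend and robust set, fewer arrays in the fit, a 2-fold minimum, another reference step, and leaving out each array in turn.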

Additional observations from a re-analysis of the deposited data

Results flagged for a closer look

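The step from 1 to 3 months differed between cobalt and tantalum, by a test of the difference itself, in 841 probe sets. Among the named genes with the highest cobalt steps, the cobalt step minus the tantalum step was 4.00 for Hmox1, 3.80 for Cxcl13, 3.25 for both Klrk1 and Cxcl9, 3.22 for Akr1b8, 3.20 for Il7r, 3.16 for Slpi and 3.15 for Ptprc on the log2 scale. It was 2.87 for Cr2, 2.83 for Ubd, 2.81 for Cxcl11, 2.67 for Laptm5, 2.60 for Mpeg1, 2.44 for Cd53 and 2.38 for B3gnt5. The 3 lowest called differences were -1.16 for Rgs7, a regulator of G protein signalling, and -1.03 and -1.01 for the olfactory receptor genes Or4f61b and Or56b2b. Rgs7 and Or56b2b were dim in every pool of the 4 groups, and Or4f61b was dim in cobalt at 3 months.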

How the results depend on the processing

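The count of cobalt calls was between 1055 and 2132 under the alternatives without a minimum fold and between 1109 and 1335 with 1 array left out. A 2-fold minimum left 476 cobalt calls and 519 differences of steps. Rises made up 73.7% of the cobalt calls, 63.7% with array weights (773 falls) and between 76.3% and 82.5% in a fit to the 6 arrays compared (185 falls) or with 1 array left out. The tantalum count of 51 became 144 with array weights, 6 in a fit to the 12 cobalt and tantalum arrays and 0 in a fit to the 6 arrays compared (2391 at an unadjusted p below 0.05), and lay between 13 and 68 with 1 array left out: 31 without the second tantalum pool of 1 month, and 32, 13 and 33 without the first, the second and the third of 3 months. The number of differences was between 645 and 1386, the latter with the mean step of 7 metals as the reference, and between 652 and 853 with 1 array left out, with 160 lower differences under array weights and 195 under that mean step. With the replicate number as a block the counts were 1666 in cobalt, 61 in tantalum and 877 for the difference. The numbers do not pair rats, as those of the 2 months differed. Same-numbered cobalt pools of the 2 months correlated in their deviations with r of 0.042, -0.015 and 0.081, and tantalum pools with 0.037, -0.12 and 0.03. Differently numbered pools had r between -0.161 and 0.124 in cobalt and between -0.106 and 0.071 in tantalum. So few values cannot show whether a number stands for a shared batch. Of 672 values of the named genes with the largest changes under an alternative, 634 kept their direction and their side of the threshold and 38 lost the call, for Cxcl13, Iqcm, Kera, Or56b2b, Pi15, Rgs7 and Tnmd. Without the dimmest 30% of probe sets, 11 of 13 T cell genes, 5 of 8 B lineage genes and 2 of 4 NK and granule genes rose. The step was then higher than in tantalum for 8 of the 13, 4 of the 8 and 0 of the 4. The causes of these shifts were not tested. Rises that start near the background have a size limited by it.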

Other observations

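Genes of the TNF family and of immune checkpoints rose in 7 of 18 cases in cobalt muscle (5.05% of all probe sets rose), with a median step of 0.37 in cobalt and -0.12 in tantalum, and 6 had a higher step than in tantalum. Cd80 and Cd86, the costimulatory ligands of CD28, rose by 1.29 ± 0.17 and 1.26 ± 0.19, and Cd274, which encodes PD-L1, by 0.79 ± 0.18. Markers of other cells a muscle sample can hold were not called in cobalt by limma. With 6.85% of all probe sets called, lists this short can hold no call, so the zeros do not show that these cells were unchanged. Of 10 adipocyte genes 0 passed (1 at an unadjusted p below 0.05), with a median of -0.31. Of 8 Schwann cell genes 0 passed (1 higher and 3 lower, unadjusted), with a median of -0.24. For 5 haemoglobin genes the count was 0 (2 unadjusted), with a median of -0.14. For 4 skin and hair genes it was 0 (0 unadjusted), with a median of -0.10.

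Olfactory and vomeronasal receptor genes, a group chosen after the values were seen, were called lower in 27 of 1099 named cases in cobalt muscle (2.46%, beside 1.8% of all probe sets) and higher in 2, with a median step of -0.14 in cobalt and 0.02 in tantalum. Their median level was 4.16 at 1 month and 4.02 at 3 months in cobalt, near the control probe sets, whose medians lay between 4.12 and 4.19 in the cobalt pools of 1 month and between 3.99 and 4.09 in those of 3 months. In tantalum the control medians lay between 4.00 and 4.13 at 1 month and between 4.07 and 4.17 at 3 months. Whether these levels move with the background of the arrays was not tested beyond these values. Of the 413 probe sets that fell in cobalt, 69 were dim at 1 month.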
